A study of Saccharomyces cerevisiae with 9 samples.

Results

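The 7 GAL genes of budding yeast (GAL1, GAL10, GAL7, GAL2, GAL3, GAL4 and GAL80) were examined for the position and occupancy of their nucleosomes in cells without Ioc3. Their members here are all paired nucleosome calls with a WT dyad, the centre of a nucleosome, between 400 bp upstream of the start codon and the stop codon. These were 73 calls of 51917 in the whole data set. The repressed structural genes held 38 of them (10 at GAL1, 12 at GAL10, 6 at GAL7 and 10 at GAL2), and the regulators held 35 (9 at GAL3, 17 at GAL4 and 9 at GAL80).

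MNase-seq was made of 3 strains with 3 samples each, all in the BY4742 background and all grown in the glucose medium YPD at 30 °C. The strains were ioc3Δ, which lacks the IOC3 gene, ioc3ΔcHLB, in which the HLB domain of Ioc3, which binds linker DNA, is truncated at its C-terminal end, and WT, which carries the intact ISW1a complex. A FLAG tag is labelled for each of the strains, even ioc3Δ, and samples were taken by genotype. Cells were fixed with 1% formaldehyde for 20 min before micrococcal nuclease digestion, and only mononucleosomal DNA was sequenced. The 3 samples of a strain were merged before nucleosomes were called. So there is 1 table per strain and comparison, no spread between samples can be given, and no test across samples was possible.

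The GAL genes encode the enzymes that turn galactose into glucose-1-phosphate, a permease and a small switch. The activator Gal4 binds upstream of the structural genes. Gal80 covers its activation domain until Gal3, bound to galactose and ATP, removes Gal80, and glucose represses the whole system, so that in YPD the structural genes are silent. ISW1a is the ISWI-type remodeler formed by Isw1 and Ioc3 and is known for moving and spacing nucleosomes over genes.

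Over the 7 paired calls of the IOC3 gene, occupancy in ioc3Δ was 0.574% of that in WT. In the table labelled ioc3ΔcHLB the same calls were at 0.680% of WT, and 60.4% of all occupancies lay within 1% of those in the ioc3Δ table, whereas 2.35% of ioc3Δ and WT occupancies were that close. In calls with at least 100 fragments, the occupancies of the 2 mutant tables differed by less than sampling noise. The tables were therefore counted as 1 sample. Sampling noise was not computed for the dyads. The table labelled ioc3ΔcHLB is used below not as a further strain but to show how far calls, and counts of calls, can differ between 2 tables of such data. The distance between called dyads was 3 bp at the median over all calls, and 10 bp or more in 16.0% of them. The calls used held 35955477 fragments in ioc3Δ and 43911516 in WT, and the median call rested on 252 and 422 fragments in ioc3Δ and WT.

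Gal4 binds pairs of CGG triplets in opposite orientation. The motif CGGNNNNNNNNNNNCCG, which is its own reverse complement, was searched up to 700 bp upstream of each start codon or to the next coding region. The window held it in 158 of 5921 genes (2.67%), and in 6 of the 7 GAL genes, with no match in the window of GAL4. The stretches below are shown because they mark DNA that lies outside the calls described here. Capitals mark the CGG and CCG triplets, and coordinates are in sacCer3. The GAL1-GAL10 stretch is chrII:278562-278627 on the plus strand, the GAL7 stretch chrII:275697-275725 on the minus strand, the GAL2 stretches chrXII:289676-289704 and chrXII:289790-289906, the GAL3 stretch chrIV:463140-463168 and the GAL80 stretch chrXIII:171416-171444, all on the plus strand.
GAL1-GAL10: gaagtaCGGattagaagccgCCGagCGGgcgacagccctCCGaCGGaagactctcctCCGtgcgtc
GAL7: agcgctCGGacaactgttgaCCGtgatcc
GAL2, far stretch: tcaattCGGaaagcttccttCCGgaatgg
GAL2, near stretch: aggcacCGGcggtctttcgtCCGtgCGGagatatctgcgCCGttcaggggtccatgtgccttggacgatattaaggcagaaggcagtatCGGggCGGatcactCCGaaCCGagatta
GAL3: cacgttCGGtccactgtgtgCCGaacatg
GAL80: atttacCGGcgcactctcgcCCGaacgac

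These 11 sites (3 between GAL1 and GAL10, 5 upstream of GAL2 and 1 each at GAL7, GAL3 and GAL80) all lay more than 73 bp from every paired WT dyad, that is outside every paired call of 147 bp. Of all 132 such sites upstream of yeast genes, 119 (90.2%) did so, so the GAL sites were like the others in this. The nearest WT dyad was 120 bp away at GAL7, 131 bp at GAL80, 238 bp at GAL3, 292 bp or more between GAL1 and GAL10, and 306 bp or more at GAL2. Only calls found in both strains are in the tables, so a nucleosome called in a single strain would be missed.

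The divergent GAL1-GAL10 promoter region of 668 bp (chrII:278353-279020) held a single paired call, 58 bp before the GAL1 start codon. Occupancy is a relative signal after normalization to mean genomic coverage, and its median over all paired calls in WT was 58.3. The occupancy of this call was 10.4 in ioc3Δ, against 34.8 in WT (52 and 252 fragments). All ratios below are ioc3Δ to WT and were divided by 0.892, the value of the median paired call. On this scale the call stood at 0.334, with an exact 95% interval of 0.243 to 0.452 that covers counting error only, and 0.207% of all calls had a lower ratio. The SD of its dyads was 29.2 bp in ioc3Δ and 15.6 bp in WT, and the called dyad differed by 1 bp. Thus the nucleosome nearest to the GAL1 start was sampled less often and less sharply in ioc3Δ, at the same called position.

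In the region between GAL10 and GAL7, 725 bp long (chrII:275528-276252), a single paired call lay 64 bp before the GAL7 start codon. Its dyad was 5 bp downstream in ioc3Δ, and its occupancy was 58.4 in ioc3Δ against 68.8 in WT, a ratio of 0.952. The next paired dyad, in the end of GAL10, was 764 bp away in WT. The WT table that goes with the other mutant holds 1 further call in this region, at -680 bp from the GAL7 start codon and so next to the end of GAL10.

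**Figure D1:**
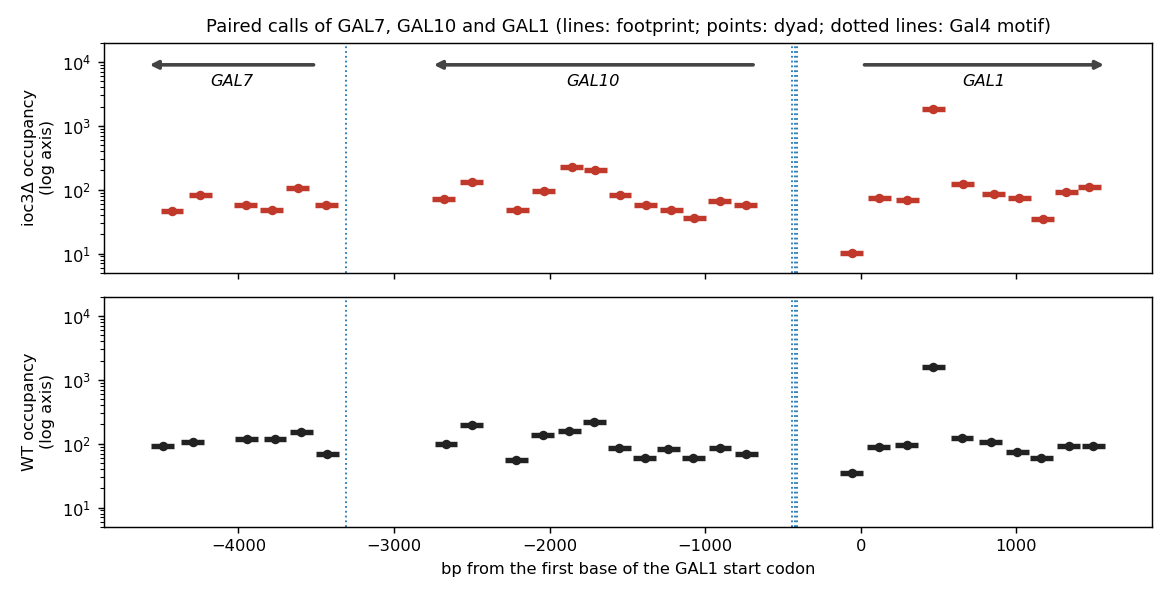
Occupancy (log axis) of the paired calls of GAL7, GAL10 and GAL1 in ioc3Δ (top) and WT (bottom), plotted by distance in bp from the GAL1 start codon. Horizontal lines are footprints of 147 bp with the dyad as a point, arrows give the direction of transcription and vertical dotted lines the Gal4 motif; the call just left of the GAL1 start is at 10.4 in ioc3Δ and 34.8 in WT, and the call at 464 bp reaches 1858 and 1567.

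A call was counted as shifted when its dyad differed between ioc3Δ and WT by the unequal-variance test rebuilt from the methods, at an unadjusted p under 0.01, where occupancy stood for the observation number. The test compares 2 merged libraries, not the strains as populations. Of the GAL calls, 25 of 73 (34.2%) were shifted, against a background of 20.9% of the calls of all genes. In ioc3Δ, 10 of them moved downstream in the direction of transcription (background 11.9%) and 15 upstream (background 8.97%). The structural genes had 17 of 38 calls shifted (44.7%), 6 downstream and 11 upstream, and the regulators 8 of 35 (22.9%), 4 in each direction. The share at the regulators was thus near the background and that at the structural genes was above it, but the calls of a gene are neighbours and no test of this difference was made. Among calls of all genes with a WT occupancy between the quartiles of the structural calls (69.1 and 122), 22.3% were shifted.

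The count depends on the observation number that enters the test. With 3 per strain no GAL call passed, nor did any of the calls of all genes. With the number of fragments 42 of the 73 passed, against 47.1% over all genes. In the table labelled ioc3ΔcHLB, 15 of the same 73 calls passed (background 16.5%), and 14 passed with the same direction in each table (background 12.2%), 11 of them at structural genes and 3 at regulators.

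The median shift hid this movement. It was -1 bp over the GAL calls, -1 bp over the structural genes and -1 bp over the regulators, against 1 bp over all genes. The median distance moved in either direction was 8 bp at the structural genes, 4 bp at the regulators and 5 bp over all genes. Shifts of 10 bp or more were found in 15 of 38 structural calls and 11 of 35 regulator calls, together 26 of 73, against a background of 27.5%.

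The median shift differed along the gene. When coding regions were divided into first, middle and last parts of equal length, the median shift of the structural genes was 3.5 bp in the first part (12 calls), -7 bp in the middle (13 calls) and -10.5 bp in the last (10 calls). The regulators had -0.5, -4 and 1 bp in the same parts (10, 11 and 10 calls), and all genes had 3, 0 and -2 bp. In the last part of the structural genes 5 of 10 calls were shifted upstream, against a background of 15.9%, and 1 was shifted downstream (background 6.58%). At the regulators 1 of 10 was shifted upstream there and none downstream. The structural medians thus lay below those of all genes in the middle and last parts by the called dyad. In the last part this order of the medians did not hold otherwise. By the mean of the dyads the structural median there was -2 bp, against 0 bp at the regulators and -4 bp over all genes. In the table labelled ioc3ΔcHLB it was 0.5 bp, against 0 and -2 bp. By the mean, 4 of these 10 structural calls were shifted upstream, against 2 of 10 at the regulators and 2508 of 15469 over all genes. In the labelled table these counts were 4 of 10, 2 of 10 and 1946 of 15127. In the middle part the structural median was -7 bp by the mean of the dyads and -5 bp in the table labelled ioc3ΔcHLB, with all genes at 0 bp in both. The regulators were at 1 bp by the mean and -2 bp in the labelled table.

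**Figure D2:**
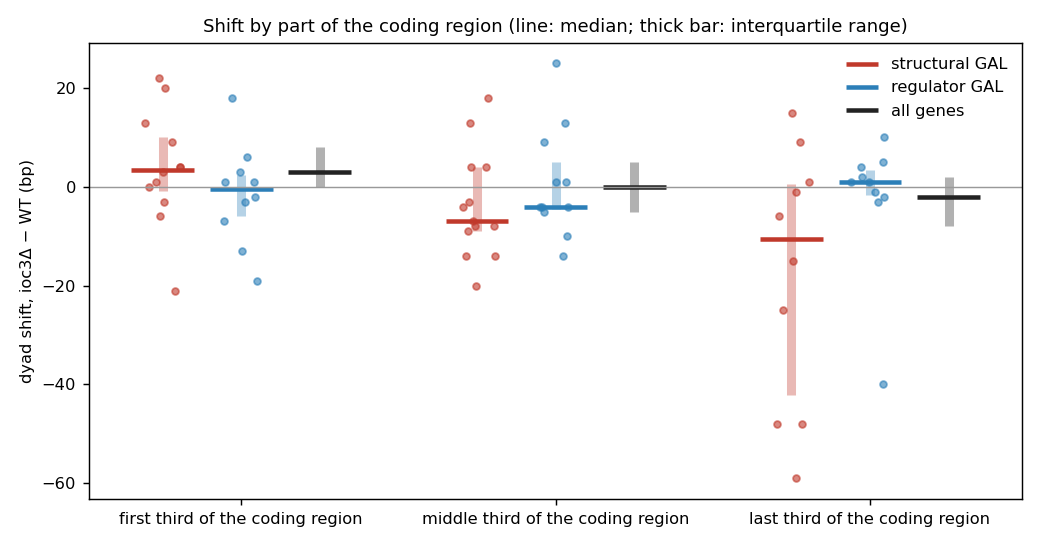
Dyad shift in bp (ioc3Δ minus WT, positive downstream) of the calls in the first, middle and last parts of the coding region. Points are single calls of the structural (red) and regulator (blue) GAL genes, lines are medians and thick bars interquartile ranges, with those of all genes in black; the structural median lies at -10.5 bp in the last part, against 1 bp at the regulators and -2 bp over all genes, but at -2 bp by the mean of the dyads and 0.5 bp in the table labelled ioc3ΔcHLB (neither plotted).

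GAL7 encodes galactose-1-phosphate uridyltransferase. Of the 7 genes it had the highest share of shifted calls and the lowest median occupancy ratio. Of its 6 calls, 4 were shifted. The first nucleosome of the coding region, at 102 bp, lay 22 bp downstream in ioc3Δ, and the next, at 271 bp, lay 20 bp downstream. The call at 800 bp lay 48 bp upstream. The call at 992 bp lay 59 bp upstream, but 11 bp downstream in the table labelled ioc3ΔcHLB, whereas the other 3 had values of 21, 19 and -43 bp there. Hence the calls at 102, 271 and 800 bp lay nearer to the middle of GAL7 in both tables, and the last call did so in the ioc3Δ table alone.

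The DNA under the first coding nucleosome of GAL7 is shown because it gives the size of this move against the footprint of 147 bp. The stretch, chrII:275330-275498 on the minus strand, holds coding bases 30 to 198, with the 125 bases covered in both strains in capitals. The lower-case bases at its left end were covered by the WT footprint only, and those at its right end by the ioc3Δ footprint only.
GAL7 first coding call: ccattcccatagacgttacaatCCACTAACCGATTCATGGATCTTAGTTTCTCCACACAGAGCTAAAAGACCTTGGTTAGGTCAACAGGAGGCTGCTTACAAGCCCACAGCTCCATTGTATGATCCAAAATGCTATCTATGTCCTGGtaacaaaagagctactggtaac

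The distance from the first to the last GAL7 call was 992 bp in ioc3Δ and 1056 bp in WT, a change of -64 bp. It was -53 bp by the mean of the dyads but 7 bp in the table labelled ioc3ΔcHLB, where the last call lay downstream. Over the 4164 genes with at least 6 calls the median change was -3 bp (interquartile range -11 to 2), and 1.27% of genes had a change as low as that of GAL7 in the ioc3Δ table, against 87.0% in the labelled table. Most of the change in the ioc3Δ table fell between the calls at 454 and 800 bp, which were 294 bp apart in ioc3Δ and 346 bp in WT. The WT table that goes with the other mutant holds a further call between them, at 625 bp, which was 16 bp upstream in the table labelled ioc3ΔcHLB with a ratio of 0.407. The change in this inner distance was -52 bp by the called dyad, -60 bp by the mean of the dyads and -46 bp in the labelled table.

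All 6 calls of GAL7 had a lower ratio of ioc3Δ to WT occupancy than the median call, with scaled ratios of 0.463 to 0.952. The call at 271 bp had 48.4 in ioc3Δ and 117 in WT, a ratio of 0.463 (0.400 to 0.535). The call at 454 bp had 56.8 in ioc3Δ and 117 in WT, a ratio of 0.547 (0.476 to 0.626). The call at 992 bp had 45.6 in ioc3Δ and 90.8 in WT, a ratio of 0.563 (0.482 to 0.656). These were the 3 lowest ratios of the gene, and their intervals, which cover counting error only, lay below 0.667. The median ratio of GAL7 was 0.668, and 37 of 4164 genes (0.889%) had a lower one. The 41 paired calls that flank the GAL7-GAL10-GAL1 cluster within 5 kb, members left out, had a median of 0.955.

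GAL10 lies next to GAL7 and encodes the epimerase that interconverts UDP-galactose and UDP-glucose. Its median shift was -6 bp, and 2.28% of the 4164 genes had a lower median. It was -3 bp by the mean of the dyads and -2 bp in the table labelled ioc3ΔcHLB, and 10.4% and 9.73% of genes had a lower median in these. The 8 consecutive calls between 407 and 1546 bp all lay upstream in ioc3Δ, by 4 to 21 bp, and 4 of them were shifted by the test. Those were the calls at 570 bp (-21 bp), 1045 bp (-7 bp), 1204 bp (-14 bp) and 1377 bp (-9 bp). In the table labelled ioc3ΔcHLB the same 4 calls were at -4, -5, -8 and -5 bp, and only the one at 1204 bp passed, while the calls at both ends of the run, at 407 and 1546 bp, lay 4 and 3 bp downstream there. The last call, at 1997 bp, lay 15 bp downstream in ioc3Δ and 9 bp downstream in the other table.

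Occupancy at GAL10 had no common direction. It was 224 in ioc3Δ and 160 in WT at 1204 bp, a ratio of 1.57 (1.44 to 1.70). At 570 bp it was 48.2 in ioc3Δ and 81.7 in WT, a ratio of 0.662 (0.567 to 0.770). The median over the 12 calls was 0.899. The distance from the first to the last call was 1940 bp in ioc3Δ and 1929 bp in WT, and a distance of 293 bp in ioc3Δ and 286 bp in WT between the calls at 1546 and 1832 bp was kept in both.

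GAL1 encodes galactokinase. Its coding region was divided into a start that kept its place and an end that did not. The 4 calls at 116, 294, 464 and 650 bp were within 4 bp of WT and none passed the test. Downstream of them, the calls at 835 and 1004 bp lay 18 and 13 bp downstream in ioc3Δ, and those at 1336 and 1494 bp lay 15 and 25 bp upstream. All 4 passed in the same direction in the table labelled ioc3ΔcHLB, with 13, 13, -20 and -30 bp. For the call at 1336 bp the mean of the dyads gave 7 bp downstream in place of 15 bp upstream, so its direction depends on how the position is taken. The last pair of GAL1 calls was 148 bp apart in ioc3Δ and 158 bp in WT. The value of 148 bp is the smallest distance between any neighbouring paired calls used, in ioc3Δ and in WT alike. It recurs in ioc3Δ at GAL10, GAL2, GAL3 and GAL80, and in WT at GAL2.

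GAL1 also holds a call of very high occupancy, at 464 bp, with 1858 in ioc3Δ and 1567 in WT. Its ratio was 1.33 (1.29 to 1.37) and its dyad was at the same base in both strains. Similar calls were found at the regulators GAL3 (1389 bp, 2352 in ioc3Δ and 1538 in WT) and GAL4 (at -265 bp, upstream of the coding region, 797 in ioc3Δ and 507 in WT, and at 2240 bp, 740 in ioc3Δ and 480 in WT). The ratios of these 3 were 1.72, 1.76 and 1.73, and their dyads differed by 2 bp or less. Calls with a WT occupancy of at least 400 had a median ratio of 1.68 over all genes, against 1.01 without this limit, so ratios of this size went with high occupancy throughout the genome.

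GAL2 encodes the galactose permease and is alone on chromosome XII. Here the calls at 153 bp (13 bp downstream), 793 bp (20 bp upstream), 941 bp (14 bp upstream) and 1460 bp (48 bp upstream) were shifted. The table labelled ioc3ΔcHLB had 12, -20, -8 and -43 bp for them, with the call at 793 bp not past the test. The call at 1460 bp has a mean-dyad shift of -19 bp, less than the called shift but in the same direction. It approached the call at 1126 bp, from which it was 294 bp distant in ioc3Δ and 334 bp in WT, and a further WT call at 1312 bp between them is held only by the WT table of the other mutant.

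The highest ratios of any GAL call were found at GAL2. At 941 bp the occupancy was 617 in ioc3Δ and 285 in WT, a ratio of 2.43 (2.30 to 2.57), and at 1460 bp it was 176 in ioc3Δ and 85.2 in WT, a ratio of 2.32 (2.09 to 2.57). Of all calls, 99.1% had a lower ratio than the first of these and 98.8% a lower ratio than the second. Over all genes, 45.4% of calls with a WT occupancy of at least 200 had a ratio of at least 1.5. For calls at 75 or more this share was 17.7%. At the start of GAL2 the ratios went both ways. The nucleosome over the start codon, with its dyad 14 bp before it, had 33.5 in ioc3Δ and 59.6 in WT, a ratio of 0.629 (0.523 to 0.754), and the call at 308 bp had 44.2 in ioc3Δ and 79.0 in WT, a ratio of 0.628 (0.536 to 0.735). Between them, the call at 153 bp had 190 in ioc3Δ and 167 in WT, a ratio of 1.28 (1.17 to 1.39).

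**Figure D3:**
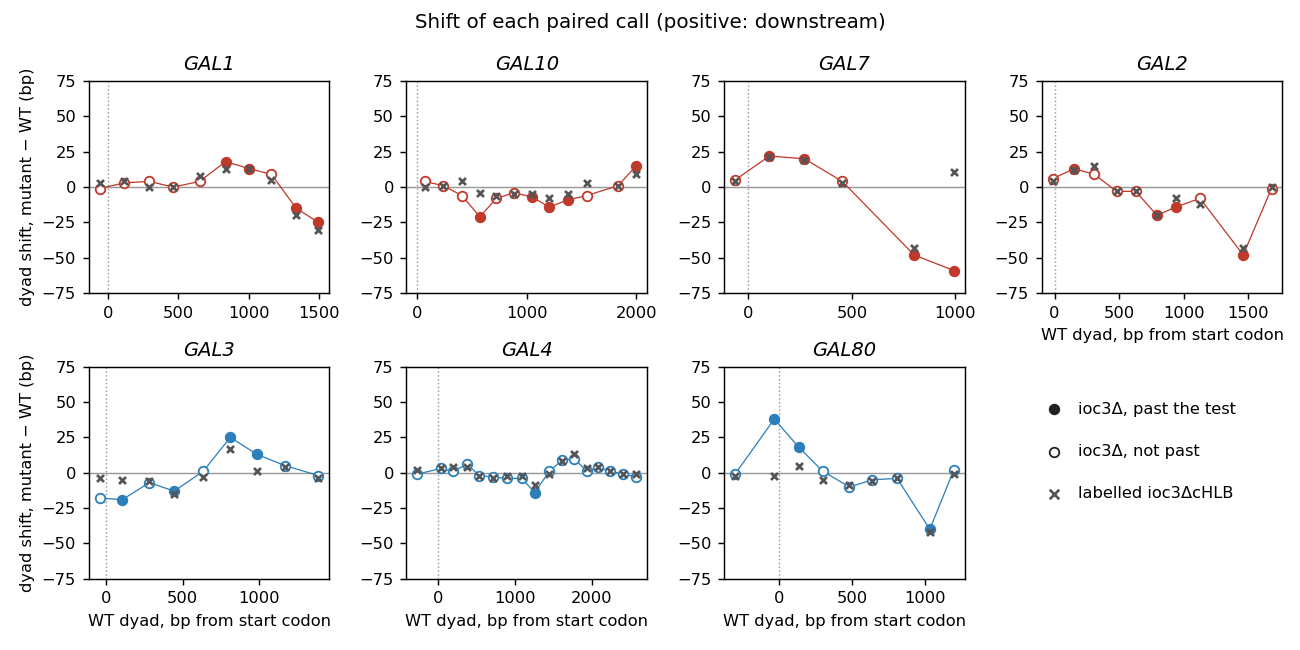
Dyad shift in bp (mutant minus WT, positive downstream) of every paired call against the WT dyad's distance in bp from the start codon, for each of the 7 genes. Filled circles passed the rebuilt test in ioc3Δ, open circles did not, and crosses are the same WT calls in the table labelled ioc3ΔcHLB. GAL4 stays within 14 bp of 0. Calls late in GAL1, GAL7, GAL2 and the regulator GAL80 reach -25, -59, -48 and -40 bp. The cross for the GAL7 call is at 11 bp and that for the GAL80 call at -42 bp.

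Among the regulators, GAL3, the galactose sensor and a paralog of GAL1, had 4 of 9 calls shifted. The calls at 107 and 445 bp lay 19 and 13 bp upstream in ioc3Δ, and those at 812 and 986 bp lay 25 and 13 bp downstream. In the table labelled ioc3ΔcHLB these were -5, -15, 17 and 1 bp, so that only the calls at 445 and 812 bp passed in both. A call of low occupancy 42 bp before the start codon was 18 bp upstream by the called dyad and 3 bp upstream by the mean, and did not pass. The distance from the call at 635 bp to that at 812 bp was 201 bp in ioc3Δ and 177 bp in WT.

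GAL80 encodes the inhibitor of Gal4. Its nucleosome at the start codon, with a WT dyad 33 bp before it, lay 38 bp downstream in the ioc3Δ table but 2 bp upstream in the table labelled ioc3ΔcHLB. The next call, at 135 bp, was 18 bp downstream in ioc3Δ and 5 bp downstream in the other table, and in ioc3Δ the pair was 148 bp apart, again this smallest distance. By the mean of the dyads the 2 calls were 21 and 2 bp downstream in ioc3Δ. These 2 shifts at the start of GAL80 thus depend on the table and on how the position is taken. The call at 1035 bp, by contrast, lay 40 bp upstream in ioc3Δ and 42 bp upstream in the other table. By the mean of the dyads it was 17 bp upstream.

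GAL4, the gene of the activator itself, was the least moved of the 7. Only 1 of its 17 calls passed, at 1255 bp and 14 bp upstream in ioc3Δ, and the same call was 9 bp upstream and did not pass in the table labelled ioc3ΔcHLB. The median distance moved in either direction was 3 bp, and the span from the first to the last call was 2836 bp in ioc3Δ and 2838 bp in WT. Its median occupancy ratio was 0.869, as 10 of 17 calls were below 1, while the nucleosome at 37 bp, just inside the coding region, had 130 in ioc3Δ and 101 in WT, a ratio of 1.44 (1.29 to 1.60).

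Over all 73 calls the median occupancy ratio was 0.952, with 0.922 at the structural genes and 0.989 at the regulators, against 1.01 over all genes. As ratios of summed occupancies, in which the few very high calls weigh most, these were 1.24, 1.14 and 1.33, against 1.34 over all genes. A ratio of at least 1.5 was found in 6 GAL calls (background 11.8%), 3 at structural genes and 3 at regulators. A ratio of 0.667 or less was found in 8 (background 9.7%), 7 at structural genes and 1, the GAL4 call at 1616 bp, at a regulator. The 7 were the call before GAL1, 1 of GAL10, 3 of GAL7 and 2 of GAL2. In WT the median occupancy was 88.8 at structural and 87.8 at regulator calls, against 59.6 over all genes, and in ioc3Δ it was 72.9, 77.3 and 51.8 for the same sets.

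**Figure D4:**
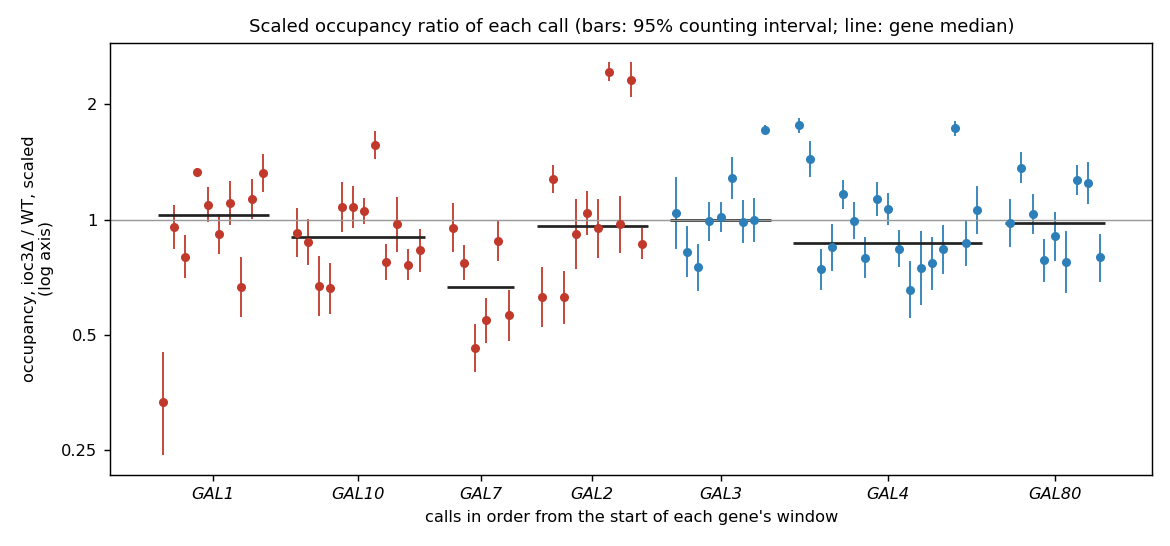
Occupancy ratio of each GAL call, ioc3Δ to WT, scaled by that of the median call (log axis), in order along each gene, with exact 95% counting intervals; black lines are gene medians. The 6 calls of GAL7 lie between 0.463 and 0.952, the first GAL1 call is at 0.334, and 2 calls of GAL2 are at 2.43 and 2.32.

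The dyads of a call were spread more widely in ioc3Δ at most GAL calls, as they were elsewhere. The SD was higher in ioc3Δ in 58 of 73 GAL calls (79.5%), against 77.6% of the calls of all genes. The median change was 3.99 bp over the GAL calls, 4.26 bp at structural genes and 3.60 bp at regulators, against 2.36 bp over all genes. GAL10 had a higher SD in all 12 calls and GAL7 in 4 of 6.

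Other genes of the pathway were taken as 3 lists. Known or proposed Gal4 targets outside the core (GCY1, PGM2, MTH1, PCL10, FUR4 and LAP3) had 10 of 52 calls shifted (19.2%, background 20.9%), 6 downstream and 4 upstream, with a median shift of 1 bp and a median ratio of 0.976. In this list PGM2, the major phosphoglucomutase, had 5 of 11 calls shifted, LAP3, a cysteine aminopeptidase, 2 of 7, GCY1, a glycerol dehydrogenase, 1 of 6, and PCL10, a cyclin of the Pho85 kinase, 1 of 9. The uracil permease gene FUR4 had 1 of 11, and MTH1, whose product acts in glucose sensing, had 0 of 8. The enzymes around the Leloir pathway had 15 of 31 calls shifted (48.4%, background 20.9%), 7 downstream and 8 upstream, with a median shift of 0 bp. These were UGP1, which makes UDP-glucose, with 6 of 11, PGM2 with 5 of 11 and the minor phosphoglucomutase PGM1 with 4 of 9.

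The 11 genes of glucose repression had 24 of 107 calls shifted (22.6% of those tested, background 20.9%), 8 downstream and 16 upstream, with a median shift of -1 bp and a median ratio of 1.12. SNF1, the kinase that lifts repression, had 5 of 11 calls shifted, its subunit gene GAL83 3 of 7, the repressor MIG1 4 of 10, and the corepressor TUP1 5 of 13. These had the highest shares of the list. At the low end were the phosphatase gene GLC7 with 0 of 9, the repressor NRG1 with 0 of 5, CYC8, the partner of TUP1, with 1 of 14, the hexokinase gene HXK2 with 1 of 9 and REG1, the GLC7 regulatory subunit gene, with 2 of 16. The Leloir list thus had a share of shifted calls above that of all genes, as the structural GAL genes had, and the other lists had shares near it. The Leloir list holds 3 genes, and its median WT occupancy was 85.6. Over all genes the share rose with WT occupancy and was 27.8% for calls at 75 or more. The difference between lists was not tested. PGM2 stands in 2 of the lists.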

How the data were processed

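The authors mapped paired-end MNase-seq reads to sacCer3 with Bowtie2 version 2.0, normalized dyad density to mean genomic coverage and called nucleosomes on merged samples. The 4 deposited tables give called dyads in bp, their SD as a score in bp, and occupancy as a relative signal after this normalization. Rows of WT and mutant are paired, with an overlap of at least 73 bp per the methods. Of 53840 rows, 1911 repeats and 12 rRNA calls were left out. Occupancies were whole multiples of 0.138 in WT and 0.199 in ioc3Δ in 100% of calls (within 1% of a fragment), taken as 1 fragment. Exact (Clopper-Pearson) 95% intervals of ratios cover counting error only. Shifts are mutant minus WT in the direction of transcription, in windows of 6002 protein-coding genes of RefSeq R64, and positions are counted from the first base of the start codon. The test was rebuilt from the methods, for occupancies of at least 2, and tested on simulated data. The simulated dyads had the spread that the test assumes, so the simulation cannot give its error rate on real data.

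Named calls were those shifted by the test and by at least 10 bp, with a ratio of at least 1.5 or at most 0.667, near the start codon or between the clustered genes. Up to 4 genes per pathway list with the highest share of shifted calls were named. Other calls, such as those of the shift run at GAL10, and the pathway genes with low shares were named after their values were seen. Members and lists were chosen with earlier results of these data known. Calculations used scipy 1.17.1, numpy 2.4.6 and pandas 2.3.3 under Python 3.11.15, and plots matplotlib 3.10.9.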

Additional observations from a re-analysis of the deposited data

How the results depend on the processing

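The median shift of the GAL, structural and regulator calls stayed within the distribution-free 95% interval of its main value under every alternative tried: the mean dyad column, an overlap of 110 bp, the upper 75% of WT occupancy, a WT SD at or under the median, coding regions only, repeated rows kept, the mean, and the table labelled ioc3ΔcHLB. Values by part of the coding region moved more, under alternatives added after the data were seen: the last-part median of the structural genes (-10.5 bp) was -2 bp by the mean dyad and 0.5 bp in the table labelled ioc3ΔcHLB, and the middle-part median of the regulators (-4 bp) was 1 bp by the mean dyad. The change in the GAL7 span (-64 bp) was 7 bp in the labelled table. The median change in dyad SD over the GAL calls stayed within its interval throughout. These intervals treat calls as independent, though the calls of a gene are neighbours. For the median shift of the structural genes the interval was -7 to 4 bp. Most alternatives used the same calls or a part of them, so a value within the interval says little about stability. The count of 25 shifted GAL calls of 73 (background 20.9%) was 13 of 49 with a WT SD at or under the median. No share over all genes was taken for this filter, which leaves out calls. The count was 16 of 75 in the table labelled ioc3ΔcHLB with its own WT calls (background 16.5%). It was 42 of 73 with fragments as the number of observations (background 47.1%), and 0 with 3 per strain, as over all genes. It was 14 when a pass in the same direction was asked of both mutant tables, an alternative added after the data were seen. The median occupancy ratio of 0.952 was 0.849 with no scaling, 0.719 when scaled by the ratio of summed occupancies, and 1.24 as a ratio of summed GAL occupancies, in which the calls of very high occupancy weigh most and which was 1.34 over all genes. A scaling divides the GAL calls and those of all genes alike, so it sets whether a ratio is below 1 but not its order among genes. No paired analysis was possible because the tables hold merged samples and the columns carry no replicate numbers. For the same reason no replicate could be left out.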

Other observations

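The widest gap between paired calls within the coding region of GAL10, between 1546 and 1832 bp, led to a search for the motif of Reb1, a general regulatory factor, after the values were seen. The letters TTACCCG or their reverse complement CGGGTAA occur at a single place in the coding regions of the 7 GAL genes, in GAL10 1717 bp from the first base of the start codon (chrII:276632-276638), inside this gap and 115 bp from the nearest WT dyad. They occur in 199 of 6002 coding regions (3.32%). Of the 208 sites there, 30.8% lie more than 73 bp from every paired WT dyad. Binding of Reb1 was not measured here.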
